A study of Homo sapiens with 10 samples.

Results

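The cadherin switch is the change in the adhesion genes that a cell uses when it leaves an epithelial state. CDH1 (E-cadherin) joins epithelial cells to each other, and in the early embryo the neural plate exchanges it for CDH2 (N-cadherin) as it forms from ectoderm. The zinc finger repressors ZEB1 and ZEB2 bind E-box sequences and are known to repress CDH1 and other epithelial genes. 10 genes around this switch were followed here, of 31017 genes in the RNA-seq count table. They are the classical cadherins CDH1, CDH2 and CDH3, the type II cadherins CDH6 and CDH11, the epithelial surface genes EPCAM and CLDN6, the neural adhesion gene NCAM1, and ZEB1 and ZEB2. They were chosen by name and with earlier results of these data known, so counts of called genes among them are a description. Each had 1 row in the count table. Its start in that row lay in 1 promoter bait among the 21833 baits of the interaction lists.

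The samples were H9 ESCs, an established human embryonic stem cell line, and neuroectodermal cells (NECs) that were derived from H9 by 7 days of differentiation. Both are therefore states of 1 line, and the labels name no genetic change. ESCs were kept in Pluripro media and matrix, and NECs, which grow as spheres, were harvested on the last day of differentiation. RNA-seq and promoter capture Hi-C (PCHi-C), a form of Hi-C in which promoter fragments are captured together with what they were ligated to, were each made from 2 biological replicates of each cell type. In such bulk samples, fewer cells that express a gene and less RNA per cell cannot be told apart.

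Library totals ran from 19234087 to 25356382 counts. The ESC libraries shared 1 sequencing lane and the NEC libraries a different one, so effects of lane and of cell type cannot be told apart. The labelled cell types were set beside 10 markers each, which were chosen with earlier results of these data known. Of the pluripotency markers, 9 fell and 0 rose in NECs, and of the neuroectoderm markers all 10 rose. Of all genes tested, 9.68% fell and 11.4% rose by the same rule. Because of that choice the marker counts are a description and not an independent check of the labels. The libraries of a cell type also differed from each other. In NEC replicate 1 all 10 pluripotency markers were below their level in replicate 2, and the summed levels were 1084 and 1670 CPM (counts scaled to library size). All 9 mesendoderm markers tested were higher in ESC replicate 2 than in ESC replicate 1, with sums of 221 and 92.7 CPM.

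RefSeq promoter windows, which run from 250 bases before to 50 bases after an annotated start, were at hand for 4 of the 10 genes. They were CDH2, CLDN6, ZEB1 and ZEB2. For CDH1, CDH3, CDH6, CDH11, EPCAM and NCAM1 no window was used here. The window of each gene that starts nearest to its position in the count table is printed here, 5′ to 3′ along the gene, because the windows differ in whether they hold the E-box CAGGTG or its reverse complement CACCTG, the letters that ZEB factors bind. Capitals mark a match. Coordinates are those of an exact match of the RefSeq window (GRCh38.p14) in GRCh37.
CDH2, chr18:25757045-25757344, minus strand: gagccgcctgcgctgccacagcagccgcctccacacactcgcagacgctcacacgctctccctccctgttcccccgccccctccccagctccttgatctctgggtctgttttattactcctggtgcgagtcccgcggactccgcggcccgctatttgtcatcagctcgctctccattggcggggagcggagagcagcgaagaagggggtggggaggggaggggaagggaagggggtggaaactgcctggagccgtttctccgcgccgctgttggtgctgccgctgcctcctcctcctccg
CLDN6, chr16:3068135-3068434, minus strand: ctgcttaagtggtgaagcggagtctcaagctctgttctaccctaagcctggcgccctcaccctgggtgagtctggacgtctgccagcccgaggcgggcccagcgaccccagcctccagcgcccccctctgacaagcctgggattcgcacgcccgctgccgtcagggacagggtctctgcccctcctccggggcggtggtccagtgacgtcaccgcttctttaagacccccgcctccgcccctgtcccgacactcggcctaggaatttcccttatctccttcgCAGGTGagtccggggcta
ZEB1, chr10:31607096-31607395, plus strand: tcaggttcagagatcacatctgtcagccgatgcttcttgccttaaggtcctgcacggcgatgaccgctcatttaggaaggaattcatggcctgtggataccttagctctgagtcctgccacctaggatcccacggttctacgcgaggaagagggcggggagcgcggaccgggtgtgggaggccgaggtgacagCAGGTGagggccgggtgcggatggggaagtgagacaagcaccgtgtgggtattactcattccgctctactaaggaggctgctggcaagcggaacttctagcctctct
ZEB2, chr2:145277637-145277936, minus strand: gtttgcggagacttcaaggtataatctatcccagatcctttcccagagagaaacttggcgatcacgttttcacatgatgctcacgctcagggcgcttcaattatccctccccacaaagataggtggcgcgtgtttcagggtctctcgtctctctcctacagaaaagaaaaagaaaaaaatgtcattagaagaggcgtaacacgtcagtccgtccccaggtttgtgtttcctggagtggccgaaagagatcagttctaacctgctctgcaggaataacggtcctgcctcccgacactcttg
The CLDN6 and ZEB1 windows each hold 1 match, and the CDH2 and ZEB2 windows hold 0. Over all 11 windows of these genes, 3 hold the motif, and the third of them is a further ZEB1 window with 3 matches. The ZEB2 window lies outside the promoter bait used here, and the other windows printed lie inside theirs. Of all 35116 windows in the table, 20.6% hold the motif on either strand and 3.49% hold it at least 2 times. A match is a description of the letters and not a binding site.

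Of the 10 genes, 5 rose (CDH6, CDH11, NCAM1, ZEB1 and ZEB2), 4 fell (CDH1, CDH3, EPCAM and CLDN6), and CDH2 did not pass the fold threshold. A gene was called when edgeR's quasi-likelihood test gave a Benjamini-Hochberg adjusted p under 0.05 and the log2 fold change was above 1.5 in size. Of the 17564 genes tested, 21.0% were called, 11.4% as higher and 9.68% as lower in NECs. All 10 genes passed the filter on low counts. The 2 ESC and the 2 NEC libraries did not overlap for any of the 10, but the share of all tested genes without overlap was not computed. A plot of each library shows the levels. Values below are CPM scaled by TMM, with means ± SD over 2 libraries, and with adjusted p-values from the same test.

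**Figure D1:**
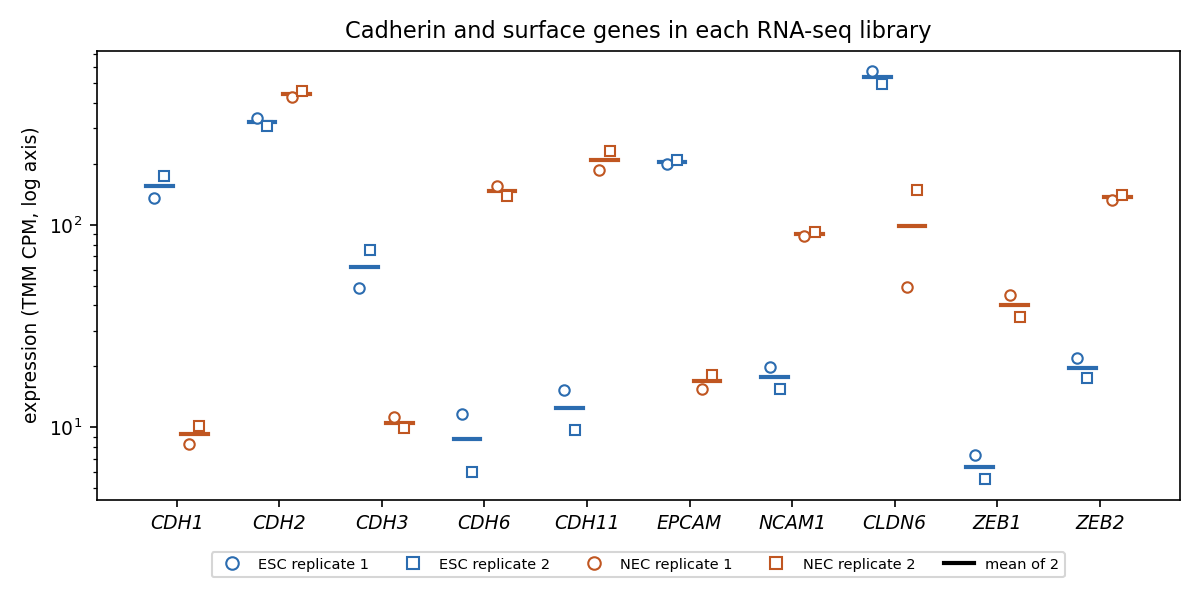
Expression of the 10 genes in each RNA-seq library, in TMM-scaled CPM on a log axis, with circles for replicate 1, squares for replicate 2 and bars for the mean of 2 (blue, ESCs; orange, NECs). CDH1, CDH3, EPCAM and CLDN6 lay lower in both NEC libraries than in both ESC libraries, the other genes lay higher, and the wide NEC gap for CLDN6 is that between 49.4 and 148 CPM.

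CDH1, the main cadherin of epithelial adherens junctions, stood at 136 and 175 CPM in ESC replicates 1 and 2 and at 8.28 and 10.2 CPM in the NEC replicates. Both NEC libraries lay far below both ESC libraries, and ESC replicate 2 was the highest. Its ESC mean was 155 ± 27.7 and its NEC mean 9.23 ± 1.34 CPM, and the log2 fold change was -4.07 (SE 0.17, adjusted p = 2.02e-05). CDH3 (P-cadherin), whose gene starts upstream of CDH1 on chromosome 16 with 38.2 kb between the genes, stood at 48.8 and 75.2 CPM in ESCs and at 11.2 and 9.89 CPM in NECs. The ESC replicates of CDH3 differed by 1.54 times, and both remained above the NEC replicates. CDH3 changed by -2.56 on the log2 scale (SE 0.22, adjusted p = 0.00021). In both genes ESC replicate 2 was the higher ESC library, as it was for the mesendoderm markers and for 15 of the 18 epithelial regulator and surface genes tested, and the part of this library difference in the values was not tested. Without ESC replicate 2 the log2 fold changes of CDH1 and CDH3 were -3.88 and -2.22, and both genes were still called.

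CDH2, the classical cadherin of neural epithelium, was already abundant in ESCs. Its libraries stood at 338 and 310 CPM in ESCs and at 429 and 460 CPM in NECs. The NEC libraries were the higher ones without overlap, but the mean was only 1.37 times as high, and the log2 fold change of 0.46 (SE 0.10, adjusted p = 0.00802) was below the threshold used for a call. Without ESC replicate 2 the adjusted p of CDH2 was 0.107. At an adjusted p under 0.05 with no fold threshold, which 61.1% of all genes tested reached, CDH2 would count as higher.

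To compare CDH1 with CDH2, CPM were divided by the length of each gene's canonical transcript. On this per-kilobase scale CDH2 already exceeded CDH1 in ESCs, by 2.98 and 2.12 times in replicates 1 and 2. In NECs it exceeded CDH1 by 62.1 and 54.1 times. The level of CDH1 per kilobase fell from 32.3 ± 5.75 to 1.92 ± 0.28, while that of CDH2 went from 80.6 ± 4.98 to 111 ± 5.39. The CDH1 mean was 16.8 times lower in NECs and the CDH2 mean 1.37 times higher. An antisense gene, AC015933.2, overlaps the 3′ part of CDH2 and had 275 to 464 counts per library against 6379 to 11341 for CDH2. Reads were counted without strand, so reads from the overlapping part cannot be assigned to one of the 2 genes.

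The type II cadherins CDH6 and CDH11, which are known from neural crest and mesenchymal derivatives, had the largest increases of the 10 genes. CDH6 stood at 11.6 and 5.99 CPM in ESCs and at 156 and 138 CPM in NECs. The log2 fold change was 4.09 (SE 0.28, adjusted p = 9.54e-05). CDH11 stood at 15.4 and 9.67 CPM in ESCs and at 187 and 232 CPM in NECs. The log2 fold change was 4.08 (SE 0.23, adjusted p = 5.21e-05). The NEC means were 16.8 times (CDH6) and 16.7 times (CDH11) the ESC means, and the lowest NEC library of each lay far above the highest ESC library. Per kilobase, the NEC means of 17.3 ± 1.5 for CDH6 and 31.2 ± 4.78 for CDH11 were below the 111 of CDH2. The neural crest markers were higher in NEC replicate 1, at a sum of 430 against 266 CPM. CDH6 was also slightly higher there, and CDH11 was higher in NEC replicate 2.

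EPCAM, an adhesion molecule of epithelial and pluripotent cells, stood at 201 and 209 CPM in ESCs and at 15.5 and 18.2 CPM in NECs. Replicates were close in both cell types, and the mean was 12.2 times as high in ESCs. CLDN6, a tight junction claudin known as a marker of pluripotent and early epithelial cells, stood at 575 and 495 CPM in ESCs and at 49.4 and 148 CPM in NECs. Per kilobase it was the most abundant of the 10 genes in ESCs, at 392 ± 41.1. CLDN6 changed by -2.43 on the log2 scale (SE 0.46, adjusted p = 0.00429), with the largest SE of the 10, and NEC replicate 2 was 3.0 times as high as NEC replicate 1. The value was -3.44 without NEC replicate 2 and -1.85 without NEC replicate 1, and the gene was called in both fits. All 10 pluripotency markers were higher in NEC replicate 2 in the same way, with a sum 1.54 times that of replicate 1, whereas CDH1 and EPCAM were 1.23 and 1.17 times as high there and CDH3 was 0.88 times as high. The part of remaining pluripotency RNA in the CLDN6 value was not tested.

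NCAM1, an immunoglobulin-type adhesion molecule of neural cells, stood at 19.8 and 15.5 CPM in ESCs and at 88.2 and 92.3 CPM in NECs. It was present in ESCs at a level above those of ZEB1, CDH6 and CDH11 per kilobase, with 3.03 ± 0.53 against 1.08 ± 0.20, 1.03 ± 0.46 and 1.86 ± 0.60. The ESC levels of ZEB1 and CDH6 per kilobase overlapped. In NECs NCAM1 reached 15.5 ± 0.49 per kilobase, between ZEB2 at 14.8 ± 0.52 and CDH6 at 17.3 ± 1.5, and the libraries of these neighbours did not overlap, although they lay close (15.2 and 15.9 for NCAM1, 14.4 and 15.1 for ZEB2).

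Both ZEB genes rose. ZEB1 stood at 7.26 and 5.54 CPM in ESCs and at 45.1 and 34.9 CPM in NECs. The log2 fold change was 2.65 (SE 0.19, adjusted p = 0.000118). ZEB2 stood at 22 and 17.5 CPM in ESCs and at 133 and 140 CPM in NECs. The log2 fold change was 2.80 (SE 0.13, adjusted p = 2.77e-05). For both genes the NEC libraries lay several times above the ESC libraries. Of the pair, ZEB2 was the more abundant per kilobase in each cell type, at 2.13 ± 0.34 against 1.08 ± 0.20 in ESCs and at 14.8 ± 0.52 against 6.74 ± 1.22 in NECs. The antisense genes at their starts were also higher in NECs. ZEB1-AS1 had 19 and 18 counts in ESCs and 72 and 82 in NECs, and ZEB2-AS1 had 3 and 4 counts in ESCs and 130 and 131 in NECs. Because strand was not used, part of these reads may come from the ZEB genes where they overlap, and this was not tested.

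The related genes were grouped by role to set the 10 genes in context. The 8 lists named 130 genes, of which some were too low to be tested. Of those tested, 29 were called higher and 31 lower in NECs. Of all genes tested, 11.4% were called higher and 9.68% lower, and the counts of each list are to be read beside these shares. The median log2 fold change of each list is given beside 0.01, the median of all genes tested. Of 18 other cadherins, 14 were tested, 11 rose and 1 fell, with a median of 2.59. CDH10 (log2 fold change 4.40, SE 0.64) rose from 17 and 2 counts in ESCs to 201 and 243 in NECs, and CDH5, the endothelial cadherin, rose from 4 and 0 to 23 and 54 counts. CDH24 rose by the least of the called cadherins (1.55, SE 0.09), and CDH26 fell (-2.43, SE 0.35). The list held more risers than fallers, but most of its genes were low, and its summed level in NECs of 208 CPM was below the 444 CPM of CDH2 alone.

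The adherens junction genes, which tie cadherins to the actin cytoskeleton, were mostly uncalled. Of 14 tested, 2 rose and 0 fell, with a median of 0.08. The 2 were the neural catenins CTNNA2, at 17 and 27 counts in ESCs and 732 and 473 in NECs (log2 fold change 4.72, SE 0.36), and CTNND2 (2.59, SE 0.23). The summed level of this list was 3149 CPM in ESCs and 3002 CPM in NECs.

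Tight junction, desmosome and other epithelial genes fell more often than they rose. Of 23 tight junction genes tested, 10 fell and 2 rose, with a median of -1.25. CLDN9 fell from 98 and 110 to 2 and 5 counts (log2 fold change -4.94, SE 0.40) and MARVELD3, a tight junction membrane protein, fell from 144 and 264 to 15 and 11 counts (-4.00, SE 0.34). CLDN4 (2.09, SE 0.43) and CLDN18 (2.61, SE 0.42) rose, and 1 gene rose without NEC replicate 1. Of 11 desmosome and keratin genes tested, 4 fell and 0 rose, with a median of -1.27. They were the plakophilins PKP3 (-5.06, SE 0.64) and PKP2 (-2.18, SE 0.16), the desmosomal cadherin DSG2 (-2.09, SE 0.10) and KRT7 (-1.89, SE 0.44).

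Of 18 epithelial regulators and surface genes tested, 13 fell and 2 rose, with a median of -2.34 (-2.03 with 1 gene at the floor of 3 counts set to its bound). ESRP1, a splicing factor of epithelial cells, fell from 1209 and 2656 to 52 and 48 counts (log2 fold change -5.30, SE 0.31), and TMEM30B fell from 57 and 105 to 5 and 0 counts (-4.99, SE 0.74). MUC1 (1.53, SE 0.29) and GRHL3 (3.09, SE 0.47), a grainyhead factor of surface ectoderm and neural tube closure, rose, and 1 gene rose without ESC replicate 1 or without NEC replicate 2. The spread of the genes in each list is shown in a plot of their fold changes.

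**Figure D2:**
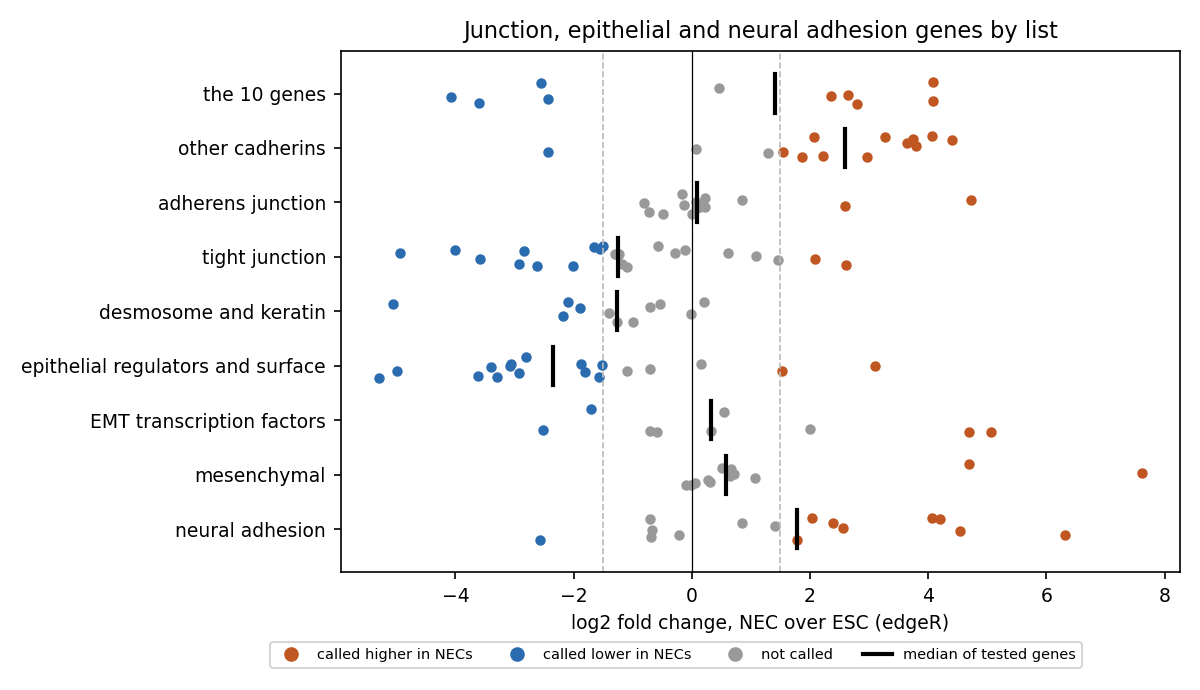
Log2 fold change (NECs over ESCs, edgeR) of each tested gene in the 10-gene set and in 8 lists of related genes, with black bars for the median of each list and dashed lines at -1.5 and 1.5 (orange, called higher in NECs; blue, called lower; grey, not called; points are spread vertically for clarity). The other cadherins sit mostly to the right, with a median of 2.59, and the epithelial regulators and surface genes mostly to the left, with a median of -2.34.

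Other transcription factors of epithelial-mesenchymal transition did not move as 1 group. Of 9 tested, 2 rose and 2 fell, with a median of 0.32. SNAI2, a repressor of the same E-boxes, rose from 16 and 21 to 524 and 485 counts (log2 fold change 4.69, SE 0.22), and PRRX1 rose from 4 and 2 to 118 and 103 counts (5.07, SE 0.46). SNAI3 (-1.70, SE 0.30) and GSC (-2.51, SE 0.51) fell, and GSC is also on the mesendoderm list. Of 12 mesenchymal genes tested, 2 rose and 0 fell, with a median of 0.57. They were COL3A1, at 1 and 24 counts in ESCs and 2962 and 2108 in NECs (7.61, SE 0.54), and ACTA2, smooth muscle actin (4.68, SE 0.17).

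Of 15 neural adhesion genes tested, 8 rose and 1 fell, with a median of 1.79. LSAMP rose from 24 and 22 to 697 and 422 counts (log2 fold change 4.54, SE 0.40). CHL1, an L1-family molecule, had 1 count in each ESC library and 122 and 62 in NECs. Its NEC mean was at least 29.3-fold higher when the ESC libraries are set to a floor of 3 counts each. NEGR1 rose by the least (1.79, SE 0.46), and CNTN1 fell from 98 and 143 to 24 and 18 counts (-2.57, SE 0.30).

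Markers of other cell types were set beside these lists. Of 10 neural crest markers tested, 5 rose and 1 fell, and PAX3 (log2 fold change 7.11, SE 0.87) had 1416 and 441 counts in NEC replicates 1 and 2. TFAP2B had 0 counts in both ESC libraries and 339 and 36 in NECs. Its NEC mean was at least 61.8-fold higher by the same floor. That bound rests mostly on NEC replicate 1 and does not hold for each NEC library. ETS1 fell (-2.68, SE 0.65). Of 6 surface ectoderm markers tested, 2 rose (GRHL3 and TFAP2A) and 1 fell (TFAP2C), with summed levels of 302 and 348 CPM in ESCs and 332 and 360 CPM in NECs, and KRT14 was at 0 counts in all 4 libraries. Of 9 mesendoderm markers tested, 8 fell and 0 rose, and 5 fell without ESC replicate 2. The part of these cell types in the members' values was not tested.

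PCHi-C then asked which fragments the promoters of the 10 genes contacted. The units were HindIII restriction fragments, and a promoter-interacting region (PIR) was the partner fragment of a bait in a call. The lists hold calls with a CHiCAGO score of at least 12, a negative log of a p-value weighted for distance, given per replicate and for merged replicates. The lists give no read numbers, which leaves the depth of each pair unknown, and a pair below the threshold is not shown to lack contact. The 10 baits ran from 3533 to 13271 bp in length. The bait of EPCAM also holds the start of AC073283.4, that of NCAM1 the start of RP11-629G13.1, that of CLDN6 the start of TNFRSF12A and that of ZEB1 the start of ZEB1-AS1, and contacts of such a bait cannot be assigned to one gene.

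The 10 baits had 21 PIRs in the merged ESC list and 40 in the merged NEC list, although the whole lists were of like size, with 98964 and 98915 calls within a chromosome. The baits had 22 and 31 PIRs in ESC replicates 1 and 2, and 34 and 36 in NEC replicates 1 and 2. In the merged lists 8 genes had more PIRs in NECs, 1 had fewer and 1 had the same number, against 39.1% of all 21812 baits with more and 37.6% with fewer. In the replicates, both NEC numbers were above both ESC numbers for 2 of the 10, against 13.1% of all baits. The merged order of CDH3 and ZEB2 turned with the choice of bait, and NCAM1 went from equal numbers to 13 in ESCs and 12 in NECs. CDH11 alone went from 0 to 10, and without it the totals were 21 and 30. With 2 replicates against 2 no permutation test could give a p under 0.05, so these numbers carry none.

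Calls of these baits seldom recurred between replicates. Of 112 pairs called in any replicate, 102 (91.1%) were in 1 replicate alone and 0 were in all 4, against 78.7% and 2.85% of all pairs in the lists. Of the 51 pairs in either merged list, 10 (19.6%) were in both, against 28.4% for all baits. The PIRs lay 16 to 2146 kb from their bait, with a median of 539 kb, and 5 of the 123 pairs in any list lay within the bait's own gene.

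**Figure D3:**
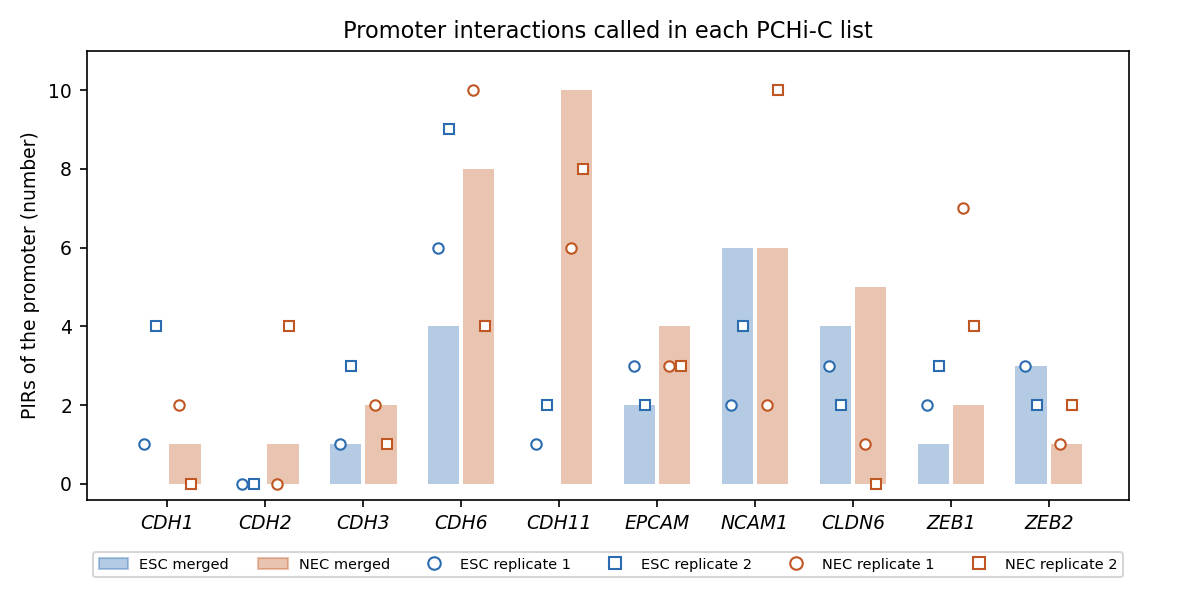
Number of PIRs of each promoter bait in each PCHi-C list, with bars for the merged lists, circles for replicate 1 and squares for replicate 2 (blue, ESCs; orange, NECs). Both NEC replicates lay above both ESC replicates for CDH11 and ZEB1, and both ESC replicates lay above both NEC replicates for CLDN6.

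CDH11 had the widest difference. Its bait had 1 and 2 PIRs in the ESC replicates but 6 and 8 in the NEC replicates, and 0 and 10 in the merged lists. CDH11 and ZEB1 were the 2 genes with both NEC replicates above both ESC replicates. All 16 CDH11 PIRs in any list lay outside protein-coding genes, and 12 lay upstream of the gene. 2 of them were gained, meaning that they were called in both NEC replicates and the merged NEC list and in no ESC list. They were the only 2 gained among the 123 pairs of the 10 baits, and 1.81% of all pairs were gained. The nearer gained PIR, chr16:65632437-65639481 in GRCh37, lay 480.5 kb upstream of the bait and scored 27.78 in merged NECs and 19.77 and 17.72 in the replicates, the highest merged score of any contact of the 10 baits. It lay beside further fragments called in NECs, at 473.2 and 475.8 kb. The farther one, chr16:66303313-66306706, lay 1149.6 kb upstream, with a merged score of 16.67 and replicate scores of 14.04 and 15.27.

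The outer ends of the 2 gained fragments, read from GRCh37 on the plus strand with the HindIII site in capitals, are shown because they are the ends that could ligate to the CDH11 promoter fragment.
480.5 kb, left end, chr16:65632436-65632475: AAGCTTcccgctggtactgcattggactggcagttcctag
480.5 kb, right end, chr16:65639447-65639486: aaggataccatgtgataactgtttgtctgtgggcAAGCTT
1149.6 kb, left end, chr16:66303312-66303351: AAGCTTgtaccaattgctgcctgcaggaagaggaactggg
1149.6 kb, right end, chr16:66306672-66306711: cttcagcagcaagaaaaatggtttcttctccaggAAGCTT
The nearer fragment has 42.7% G and C over 7045 bp and the farther one 56.3% over 3394 bp.

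CDH6, which rose by as much as CDH11, showed no gained PIR. Its bait had 6 and 9 PIRs in the ESC replicates against 10 and 4 in NECs, which overlap. The merged lists held 4 and 8 PIRs, of which 0 were shared. All 30 CDH6 PIRs in any list lay upstream, 299.5 to 1384 kb from the bait, and all lay outside protein-coding genes. The highest merged scores were 12.62 in ESCs, at 625.0 and 493.2 kb, and 13.93 in NECs, at 387.2 kb, close to the threshold of 12.

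**Figure D4:**
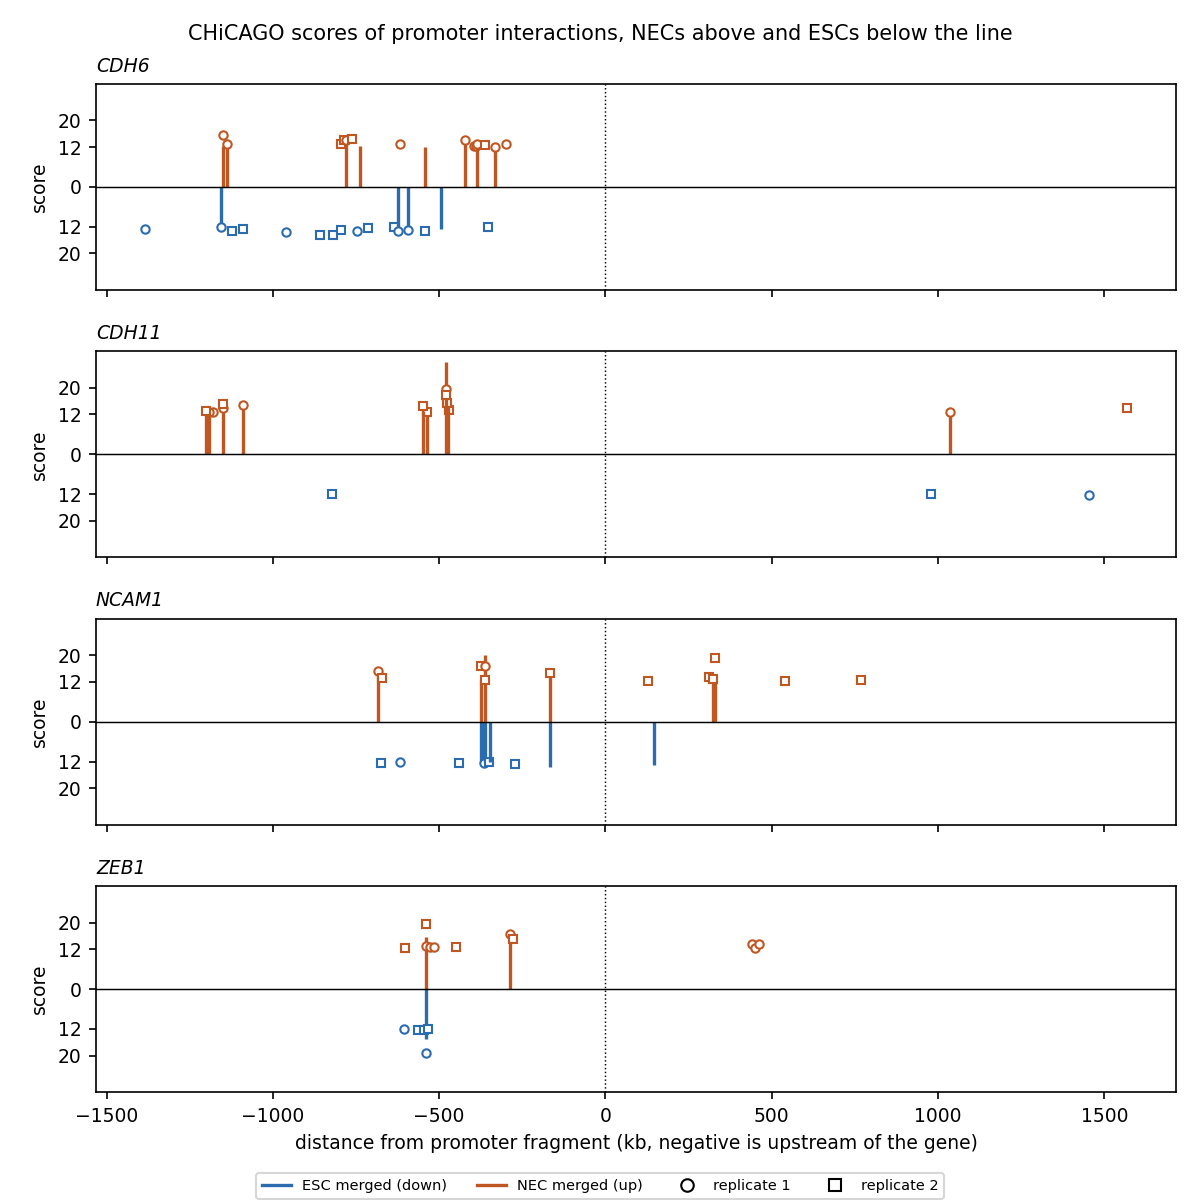
CHiCAGO scores of the PIRs of CDH6, CDH11, NCAM1 and ZEB1 against signed distance from the bait in kb (negative is upstream of the gene), drawn upwards for NECs and downwards for ESCs, with lines for the merged lists, circles for replicate 1 and squares for replicate 2. The CDH11 contact at 480.5 kb upstream reaches 27.78 in merged NECs with no ESC call, CDH6 contacts lie only upstream, and ZEB1 has a contact at 540.1 kb upstream in both cell types.

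NCAM1 had 2 and 4 PIRs in the ESC replicates against 2 and 10 in NECs, and 6 in each merged list, of which 3 were the same fragments. Over the 2 baits that hold annotated NCAM1 transcript starts, the merged numbers were 13 in ESCs and 12 in NECs. Its top NEC contact, chr11:112470992-112473511 at 360.7 kb upstream, scored 20.10 in the merged NEC list and 16.75 and 12.62 in the NEC replicates. It scored 12.17 in the merged ESC list and was in neither ESC replicate, so it was not gained. The top ESC contact was at 165.9 kb upstream, with 13.71 in merged ESCs and 14.12 in merged NECs.

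ZEB1 had 2 and 3 PIRs in the ESC replicates against 7 and 4 in NECs. Its contact with chr10:31066260-31073811, 540.1 kb upstream and outside protein-coding genes, was called in 3 of 4 replicates. The scores were 19.34 in ESC replicate 1 and 12.86 and 19.70 in the NEC replicates. ESC replicate 2 lacked that fragment but had the fragments on both sides of it, with scores of 12.20 and 12.13. The top NEC contact was the start of ZNF438, 285.4 kb upstream, with 16.49 in the merged list and 16.60 in NEC replicate 1.

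ZEB2 was the 1 gene with fewer PIRs in the merged NEC list, 1 against 3, while its RNA rose. The ESC replicates had 3 and 2 PIRs against 1 and 2 in NECs, which meet at 2. A contact with chr2:147407407-147424854, 2134.5 kb upstream, was lost, with scores of 15.62, 16.25 and 12.57 in merged ESCs and its replicates and no NEC call, as for 1.78% of all pairs. The top NEC contact, at 519.8 kb upstream, scored 14.92. The direction of the ZEB2 numbers depended on the bait, since 3 baits together hold the annotated transcript starts of ZEB2 and had 4 PIRs in merged ESCs and 6 in merged NECs.

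CDH1 and CDH3 had few contacts. CDH1 had 1 and 4 PIRs in the ESC replicates against 2 and 0 in NECs, and 0 and 1 in the merged lists. CDH3 had 1 and 3 in ESCs against 2 and 1 in NECs, and the merged lists held 1 and 2. Both baits called the fragment chr16:68557705-68570938, which holds exons of ZFP90, at 206.6 kb from CDH1 and 111.4 kb from CDH3, both upstream. For CDH1 it was in replicate 1 of each cell type (12.09 and 12.03) and in merged NECs (13.71). For CDH3 it was in both merged lists at 12.13 and in no replicate. The other CDH3 contact in merged NECs lay in an exon of CDH1, 162.4 kb downstream, with a score of 12.26. The annotated transcript starts of CDH3 that fall in a bait fall in a different one, which had 2 PIRs in merged ESCs and 0 in merged NECs, so the order for CDH3 turned with the choice of bait.

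EPCAM had 3 and 2 PIRs in the ESC replicates and 3 in each NEC replicate. Both of its merged ESC contacts were in the merged NEC list too, one at the start of CALM2 (13.57 and 12.12) and one in an EPCAM intron 16 kb downstream (13.63 and 12.09). Its top NEC contact was the start of SOCS5, at 14.27. CLDN6 had 3 and 2 PIRs in the ESC replicates against 1 and 0 in NECs, but 4 and 5 in the merged lists, so the direction was not the same. ESC replicates lay above NEC replicates for 12.9% of all baits and for 1 of the 10. Its contact at chr16:3031997-3052026, 26.9 kb downstream, scored 20.93 in merged ESCs and 14.72 and 13 in the replicates, and 12.81 in merged NECs with no NEC replicate. The top NEC contact, at 130.2 kb upstream, scored 15.40.

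CDH2 had 0 PIRs in each ESC list and 0 and 4 in the NEC replicates, and the merged NEC list held 1, a fragment 517.9 kb downstream with a score of 15.24. The same bait was, however, contacted from elsewhere. Calls made from other baits to the 10 promoter fragments numbered 35 pairs, of which 8 recurred in both ESC or both NEC replicates. The share of all pairs that recur in this way was not computed, so this count is a description. Of the 8 pairs, 1 that was in all 4 replicates, 1 that was gained and 1 other at the ZEB2 bait are given. They were chosen after their values were seen. The bait at AC015933.2, in the 3′ part of CDH2 and 221.3 kb from the CDH2 promoter fragment, contacted that fragment in all 4 replicates, with scores of 12.50 and 15.64 in ESCs and 15.08 and 17.02 in NECs. The call was not made from the CDH2 side. The bait at RP11-570L15.1, 923.5 kb from the ZEB2 bait, contacted it in NECs with scores of 21.60 merged and 21.62 and 14.31 in the replicates, and in no ESC list. This holds for that fragment alone, since the same bait contacted a nearby ZEB2 fragment, chr2:145272823-145276120, in both cell types, with scores of 14.74 in merged ESCs, 17.39 in ESC replicate 2 and 21.54 in merged NECs. A call to the ZEB2 bait from the bait at CTD-2252P21.1, 749.0 kb away, went the other way. It scored 17.60 in merged ESCs and 13.76 and 20.22 in the ESC replicates. In NECs it was in replicate 1 alone, at 13.58. For these genes the calls from other baits therefore held contacts that the genes' own PIR numbers do not include.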

How the data were processed

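RNA-seq and PCHi-C data of H9 ESCs and day 7 NECs were analysed, with 2 biological replicates of each cell type per assay. The p-values of the RNA-seq test therefore set the difference between cell types against the spread between cultures of 1 line. Sequencing lane cannot be told apart from that difference. Conventional Hi-C was not used here. The 10 genes, the gene lists and the markers were chosen with earlier results of these data known.

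For RNA-seq, the authors aligned reads to GRCh37 and deposited counts per gene, made without regard to strand and not normalized. For PCHi-C, the authors deposited the CHiCAGO score of each fragment pair at or above 12, for each replicate and for merged replicates, on GRCh37. The submitters' processing notes list TopHat2 2.0.8b and Bowtie 1.0.0 without their roles.

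Counts were analysed with edgeR 4.0.16 in R 4.3.3 (filterByExpr, minimum count 10, which kept 17564 of 31017 genes, TMM, quasi-likelihood test, Benjamini-Hochberg adjustment, a call at adjusted p under 0.05 and absolute log2 fold change above 1.5). SE is the absolute log2 fold change divided by the square root of the F statistic. Reported fold changes use a prior count of 0.125. Levels between genes were compared per kilobase of the Ensembl canonical transcript (GENCODE annotation on GRCh37). DESeq2 1.42.0 was an alternative. The tests were checked on simulated data.

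A bait was the fragment that holds the gene start of the count table, and PIRs were matched as identical fragments with Python 3.11.15 and pandas 2.3.3. Named were all 10 genes, in each list the called genes at the 2 highest and 2 lowest log2 fold changes, and for each bait the PIR with the highest merged score per cell type and each PIR retained, gained or lost. Contacts beyond these and calls from other baits were chosen after their values were seen, and 1 such call is not reported here. Figures were drawn with matplotlib 3.10.9.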

Additional observations from a re-analysis of the deposited data

How the results depend on the processing

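Over 11 alternatives for expression (DESeq2's size factors or test, library size alone, 2 other filters, adjusted p alone, the replicate number as a block and each of 4 libraries left out), 109 of 110 values for the 10 genes kept their direction and their side of the call, and CDH2 (log2 fold change 0.46) was called with adjusted p alone. Of the 10 genes, 9 were called in each alternative except with adjusted p alone, where 10 were. That setting also gave 48 related genes as lower in place of 31, and over all genes 10738 calls in place of 3697. With the replicate number as a block, 9 of the 10 genes and 3698 of all genes were called. The deviations of replicates 1 and 2 in ESCs and NECs correlated at 0.06 over 17564 genes. The labels give a shared number and no pairing, and this correlation cannot show whether the cultures were paired. Of 286 counts per list, 272 were within 1.5 times, and 6 of the others came with adjusted p alone. No value reversed.

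At a score of at least 15, the 10 baits had 4 PIRs in ESCs, 7 in NECs and 1 shared, in place of 21, 40 and 10. With 1 replicate list in place of a merged list, the shared number ranged from 2 to 5. With baits at any annotated transcript start the numbers were 30, 49 and 12, where CDH3 moved to another bait, and with PIRs within 10 kb 14 were shared. Without read numbers, the depth behind each interaction was unknown.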
